A study of Mus musculus with 2 samples.

Results

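The 37 genes described here are a chosen list of the interferon and double-stranded RNA (dsRNA) response: 6 sensors with their adaptor, 7 receptor subunits and transcription factors, 6 enzymes that act on or are switched on by dsRNA, and 18 effectors that interferon is known to induce. They were taken by name out of 23366 named genes. The level of a gene was the sum of the FPKM (fragments per kilobase of transcript, scaled to the fragments mapped in the library) of its RefSeq transcripts and of the same-strand transcript models of 300 nt or more assembled over its exons in each library. Models without a strand were joined too where exons of the gene covered most of their bases. All 37 genes had entries in both files, and 32 reached 1 FPKM in at least 1 library and were compared. 25 of the 32 passed in both libraries, 5 in the knockout library only and 2 in the wild-type library only, so the compared set depends in part on the values it compares.

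The cells were spermatogonial progenitor cells (SPCs), the early germ cells of the postnatal testis that feed spermatogenesis. They came from C57BL/6 mice at 8 days after birth. There was 1 wild-type library and 1 library of the genotype Dnmt3l knockout; the number of animals, any pooling, the allele and the way the cells were purified are not given in the sources used here. DNMT3L is a cofactor without catalytic activity of its own that the de novo DNA methyltransferases need in male germ cells. With 1 library of each genotype there is no replicate, no test and no p-value: every difference below compares these libraries, and each bracket gives the lower and upper bound that the authors' software put on an FPKM, which covers the estimate within a library and not the spread between animals.

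Type I interferons are secreted proteins that bind a receptor of the subunits IFNAR1 and IFNAR2 on the same or a neighbouring cell. The receptor activates JAK kinases, which phosphorylate STAT proteins, and a complex of these with IRF9 binds the interferon-stimulated response element (ISRE) of target genes. Upstream, cytoplasmic helicases such as MDA5 and RIG-I recognise dsRNA from viruses or from transcribed repeats and signal through MAVS to IRF3 and IRF7, the factors that switch on interferon genes. Several sensors and enzymes of the pathway are themselves induced by interferon.

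Among the 32 compared genes, 7 were at least 2-fold higher in the knockout library and 0 were at least 2-fold lower, where 7.67% of all 13823 genes compared were at least 2-fold higher and 3.49% at least 2-fold lower. The 7 were Ifitm3, Mx2, Bst2, Ifitm2, Ifnar2, Ifi27 and Isg15, 6 of them effectors and 1 a receptor subunit. The ratio used throughout is log2((knockout FPKM + 1)/(wild-type FPKM + 1)), which understates the change of genes of low level. Its median was 0.47 over the 32 genes and 0.22 over all genes compared. 25 of the 32 ratios lay above 0 and 7 below, and 66% of all genes had a ratio above 0. The median gene among those that reached 1 FPKM in each library had a ratio of 0.21, and the members were also set against it: 20 of 32 lay above the median gene, beside 51.2% of all genes, and 4 (Ifitm3, Mx2, Bst2 and Ifitm2) were at least 2-fold above it, beside 4.87% of all genes, while 0 were at least 2-fold below it, beside 5.41%. Poly(A) RNA of a bulk preparation was measured, so a change in the number of cells of a type and a change in RNA per cell cannot be told apart.

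**Figure D1:**
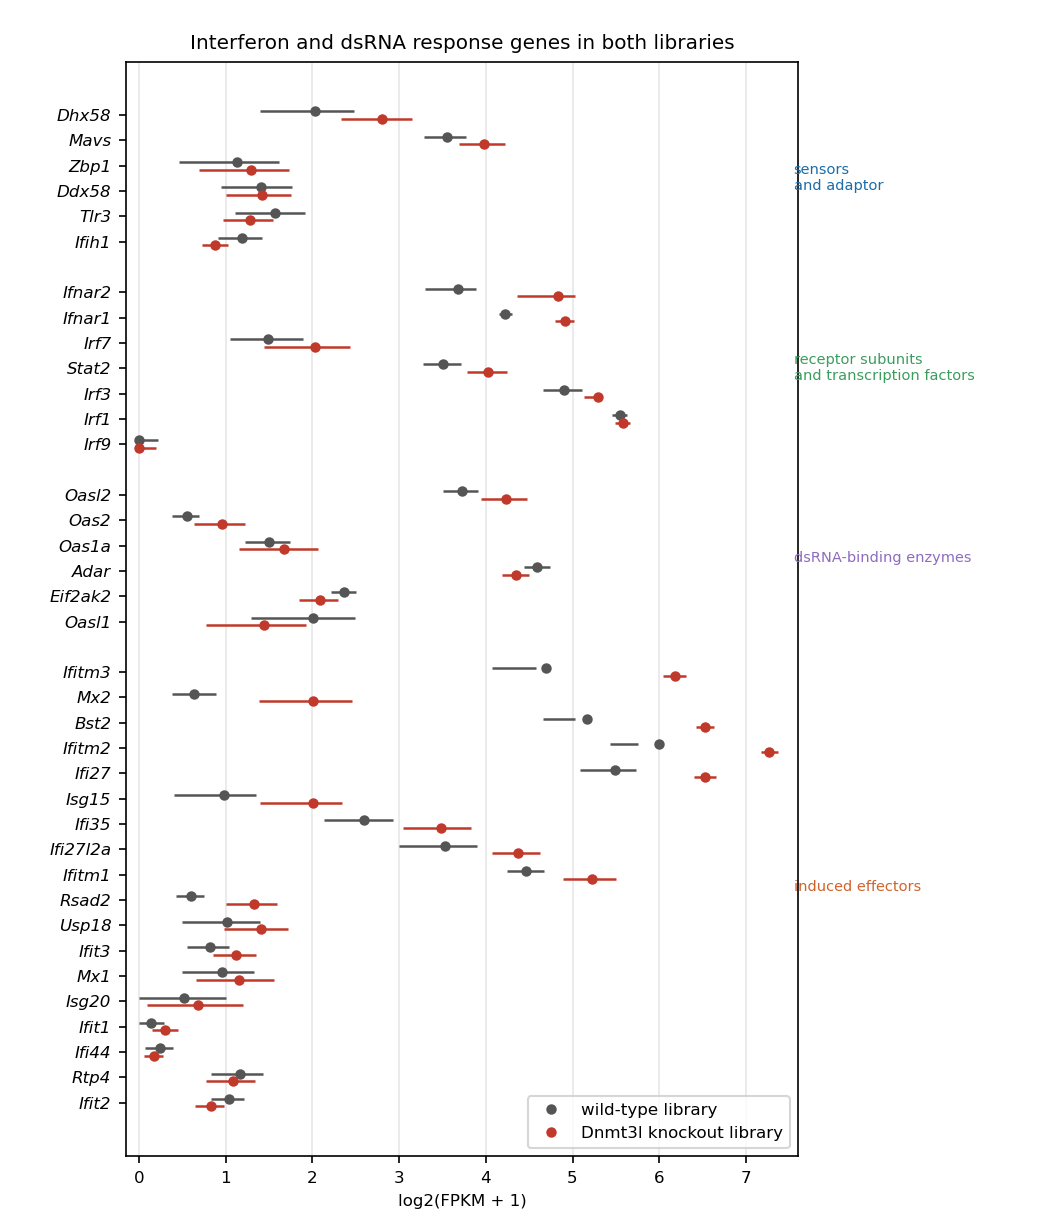
Level of each of the 37 genes as log2(FPKM + 1) in the wild-type (grey) and the Dnmt3l knockout (red) library, grouped by role and ordered by ratio within a role. Horizontal lines span the deposited bounds, summed over the transcripts and models of each gene. For Ifitm3, Bst2 and Ifitm2 the wild-type value lies above its own upper bound. The separated pairs are mostly effectors, and most of the sensors overlap near the low end of the axis.

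Transcripts of interferon itself were close to 0 in both libraries. Of 21 interferon genes, 17 were listed at 0 in both files and none reached 1 FPKM. The highest was Ifng, the type II interferon of T and NK cells, at 0.18 FPKM in wild-type RNA and 0.38 in knockout RNA. Ifnb1, the beta interferon that dsRNA sensing induces in most cells, was at 0.10 and listed at 0.

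The type I receptor was readily measured. Ifnar1 (chromosome 16, 91485215 to 91510522, plus strand, mm10), the signal-initiating subunit, was at 17.7 FPKM (16.8 to 18.7) in wild-type RNA and 29.2 FPKM (26.9 to 31.5) in knockout RNA, a ratio of 0.69. Ifnar2 (chromosome 16, 91372783 to 91405587, plus strand), the subunit that binds the ligand most tightly, was at 11.9 FPKM (8.85 to 13.8) and 27.5 FPKM (19.6 to 31.6), a ratio of 1.15. The bounds of the libraries did not overlap for either subunit. Much of both differences came from models assembled only in the knockout library. For Ifnar1 the 7013-nt RefSeq transcript was at 17.7 FPKM in wild-type RNA and 13.6 in knockout RNA, where a second model of 12 exons and 3327 nt stood at 15.6 FPKM beside it. On RefSeq transcripts alone the ratio of Ifnar1 was -0.36. For Ifnar2, which is known to give a soluble and a membrane form, the 1169-nt transcript was at 9.42 and 10.9 FPKM and the 3045-nt transcript at 2.43 and 2.95 FPKM. The knockout library held 2 further Ifnar2 models at 9.51 and 4.17 FPKM, and without models the ratio was 0.21.

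The factors downstream of the receptor and of the sensors were expressed at unequal levels. Irf1, a transcription factor that type I and type II interferon induce quickly, was the most abundant of them and differed least, with 45.6 FPKM (42.8 to 48.6) in wild-type RNA and 46.8 FPKM (43.9 to 49.8) in knockout RNA. Its ratio of 0.04 became -0.17 when the median gene was set to 0. Irf3, the factor that sensors activate in resting cells, was at 28.8 FPKM (24.2 to 33.5) and 38.3 FPKM (33.9 to 39.6), a ratio of 0.40. Stat2, a transcription factor that the type I receptor activates, was at 10.4 FPKM (8.67 to 12.1) and 15.3 FPKM (12.7 to 17.9), a ratio of 0.52. Only for Irf3 and Stat2 among these factors did the bounds lie apart, and without models their ratios were 1.43 for Irf3 and -0.53 for Stat2. Irf7, which amplifies the interferon response after its first round, was low, with 1.81 FPKM (1.07 to 2.72) and 3.08 FPKM (1.72 to 4.40). The 6 compared genes of this group all had ratios above 0, with a median of 0.53.

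Irf9, the DNA-binding partner of STAT2, was listed at 0 in both libraries, with upper bounds of 0.16 and 0.15 FPKM, and was not compared. Its locus was not empty in the knockout file. A same-strand model of 6225 nt at 4.46 FPKM ran from the neighbouring gene Rnf31 through 2459 nt of Irf9 exons, and was counted for Rnf31, with which it shared most bases. The 0 of Irf9 therefore sets no limit on its expression in the knockout library.

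The dsRNA sensors were low in both libraries and none differed 2-fold. Ifih1, which encodes the long-dsRNA sensor MDA5, was at 1.28 FPKM (0.89 to 1.68) in wild-type RNA and 0.83 FPKM (0.65 to 1.03) in knockout RNA. Ddx58, which encodes RIG-I, the sensor of short dsRNA with a triphosphate end, was at 1.65 FPKM (0.93 to 2.40) and 1.68 FPKM (1.00 to 2.38). Tlr3, the endosomal dsRNA receptor, was at 1.97 FPKM (1.15 to 2.78) and 1.43 FPKM (0.96 to 1.93). The 3 sensors had ratios of -0.32, 0.02 and -0.29 in that order, and their bounds overlapped between the libraries.

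Dhx58, which encodes LGP2, a helicase that modulates both cytoplasmic sensors, had the highest ratio of the group. It was at 3.09 FPKM (1.63 to 4.56) in wild-type RNA and 5.95 FPKM (4.04 to 7.89) in knockout RNA, a ratio of 0.77 with overlapping bounds. Its 2412-nt RefSeq transcript was at 1.40 FPKM in wild-type RNA and listed at 0 in knockout RNA, where the FPKM of the gene came from 3 assembled models, so that the ratio on RefSeq transcripts alone was -1.26. Zbp1, a sensor of left-handed dsRNA that can trigger necroptosis, was at 1.19 FPKM (0.38 to 2.05) and 1.45 FPKM (0.62 to 2.32), a ratio of 0.16. Mavs, the mitochondrial adaptor shared by RIG-I and MDA5, was the most abundant of the group at 10.7 FPKM (8.77 to 12.7) and 14.7 FPKM (11.9 to 17.7), a ratio of 0.42. Of the 6 genes, 4 had ratios above 0 and 2 below, with a median of 0.09. For 0 of the 6 did the bounds lie apart, where 35.5% of all genes were higher and 16.1% lower with bounds apart.

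The dsRNA enzymes were mixed in direction. Adar (chromosome 3, 89715022 to 89753455, plus strand), which edits adenosine to inosine in dsRNA and keeps self RNA from being sensed, was the most abundant, with 23.2 FPKM (20.6 to 25.7) in wild-type RNA and 19.3 FPKM (17.1 to 21.5) in knockout RNA. Eif2ak2, which encodes PKR, the kinase that halts translation on binding dsRNA, was at 4.16 FPKM (3.64 to 4.68) and 3.25 FPKM (2.60 to 3.91). Both were slightly lower in the knockout library, with ratios of -0.25 and -0.28, and their bounds overlapped. The difference was larger over the 5' part of both genes: the level over the first 500 nt of the longest RefSeq transcript of Adar was 16.1 FPKM in wild-type RNA and 4.40 in knockout RNA, and that over the last 500 nt was 23.2 and 19.3. For Eif2ak2 the first 500 nt were at 4.16 and 1.61 FPKM. An end level adds up whole-model FPKM, so it is no measure of read coverage.

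The 2'-5' oligoadenylate synthetase family makes the messenger that activates RNase L after dsRNA binding. Oas1a was at 1.82 FPKM (1.34 to 2.35) in wild-type RNA and 2.19 FPKM (1.23 to 3.18) in knockout RNA, a ratio of 0.17, and Oas2 at 0.47 and 0.94 FPKM was under the filter. Oasl1, a family member known to restrain Irf7 translation, had the lowest ratio of all 32 genes, -0.56, from 3.01 FPKM (1.44 to 4.61) to 1.71 FPKM (0.70 to 2.80) with overlapping bounds. Oasl2 was the most abundant of the family at 12.2 FPKM (10.3 to 14.1) and 17.8 FPKM (14.4 to 21.2), a ratio of 0.51. Its direction depended on what was summed: the RefSeq transcript was at 6.06 and 1.48 FPKM, a ratio of -1.51, while 3 knockout models and 1 wild-type model made up the rest. The genes of the Oas, Ifit, Ifitm and Mx families have similar paralogs in the genome, and how reads shared between them were assigned is not given in the sources used here. The 5 compared enzymes had a median of -0.25, with 2 ratios above 0 and 3 below.

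The effectors that were at least 2-fold higher were 5 genes with transcripts under 1100 nt and Mx2, whose longest transcript has 2422 nt. Ifitm2 (chromosome 7, 140954839 to 140955961, minus strand), a membrane protein that blocks virus entry, was at 63.0 FPKM in wild-type RNA and 153 FPKM (143 to 164) in knockout RNA, a ratio of 1.27. Ifitm3 (chromosome 7, 141009590 to 141010744, minus strand), also known as Fragilis and expressed by early germ cells, was at 25.0 FPKM and 71.4 FPKM (64.8 to 77.9), the highest ratio of the 32 genes at 1.48. Bst2 (chromosome 8, 71534262 to 71537437, minus strand), the tetherin that holds budding virus on the cell, was at 35.0 FPKM and 91.5 FPKM (84.6 to 98.4), a ratio of 1.36. For these 3 genes the wild-type FPKM lay above its own deposited bounds, which were 42.2 to 52.9 for Ifitm2, 15.8 to 22.9 for Ifitm3 and 24.3 to 31.5 for Bst2. The knockout values lay far above those bounds and above the values themselves. Each has a single RefSeq transcript and no assembled model, so the way transcripts were summed did not enter.

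Ifi27 (chromosome 12, 103434189 to 103440245, plus strand), a small interferon-induced membrane protein, was at 43.9 FPKM (33.0 to 52.1) in wild-type RNA and 91.5 FPKM (83.7 to 99.9) in knockout RNA. Its ratio was 1.04 in the sum and 1.72 on RefSeq transcripts, because 2 models were assembled over it in the wild-type library only. Isg15 (chromosome 4, 156199424 to 156200818, minus strand), the ubiquitin-like protein conjugated to targets in the interferon response, was low at 0.97 FPKM (0.33 to 1.55) and 3.01 FPKM (1.63 to 4.08), a ratio of 1.03. Mx2 (chromosome 16, 97536081 to 97560901, plus strand), a gene of the family of antiviral dynamin-like GTPases, was at 0.55 FPKM (0.30 to 0.85) and 3.01 FPKM (1.61 to 4.48), a ratio of 1.37. Its RefSeq level came from the 2422-nt transcript that RefSeq lists as noncoding, at 0.55 and 0.72 FPKM. The 2417-nt coding transcript was listed at 0 in both libraries, so the values do not show a functional protein. Of the 3.01 FPKM of Mx2 in the knockout library, 1.91 FPKM came from a model of 3 exons and 976 nt, and its ratio was 0.15 without models and 0.84 at the exon level, the mean over exon bases of the summed FPKM of all models that cover them. Ifi27, Isg15 and Mx2 had bounds apart.

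The 9 effectors compared but not 2-fold different covered a wide range of levels. Ifitm1, another gene of the Ifitm cluster, was at 21.1 FPKM (17.9 to 24.5) in wild-type RNA and 36.2 FPKM (28.6 to 44.3) in knockout RNA, a ratio of 0.75 that was 0.11 without a 515-nt model of the knockout library. Ifi27l2a, a relative of Ifi27, was at 10.5 FPKM (7.02 to 13.9) and 19.7 FPKM (15.7 to 23.6), a ratio of 0.85. Ifi35, an interferon-induced leucine zipper protein, was at 5.04 FPKM (3.37 to 6.64) and 10.2 FPKM (7.27 to 13.2), a ratio of 0.89. Of these levels, 1.33 and 2.25 FPKM came from single-exon models without a strand, and on RefSeq transcripts alone the ratio of Ifi35 was 0.65. Ifitm1, Ifi27l2a, Ifi35 and Rsad2, which encodes the antiviral radical enzyme viperin, had bounds apart. Rsad2 was at 0.51 FPKM (0.34 to 0.68) and 1.52 FPKM (1.01 to 2.02), a ratio of 0.73. The other 5 had overlapping bounds. Usp18, the protease that removes ISG15 and dampens receptor signalling, was at 1.02 and 1.64 FPKM, Ifit3 at 0.76 and 1.17, and Mx1, whose gene is known to be defective in C57BL/6 mice, at 0.94 and 1.23. Ifit2 was lower in the knockout library at 1.05 and 0.77 FPKM, as was Rtp4 at 1.24 and 1.13. The Ifit proteins bind viral RNA ends and block their translation, and Rtp4 is an interferon-induced chaperone of receptors.

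Effectors that usually answer interferon strongly in other cells were near 0. Ifit1 was at 0.10 FPKM in wild-type RNA and 0.23 in knockout RNA, Ifi44 at 0.18 and 0.12, and Isg20, an exonuclease for single-stranded RNA, at 0.43 and 0.61. These 3 were not compared. Over the 15 compared effectors the median ratio was 0.85, 6 were at least 2-fold higher, 0 at least 2-fold lower, and 10 were higher with bounds apart. These counts depend in part on the filter. All 5 members that passed it in the knockout library only were effectors: Isg15, Mx2, Rsad2, Ifit3 and Mx1. Isg15 and Mx2 are among the 6, and both and Rsad2 are among the 10. The sensor Ifih1 and the effector Ifit2 passed in the wild-type library only. The ratios of the compared effectors ran from -0.21 to 1.48 and overlapped with those of the sensors, -0.32 to 0.77.

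The promoters of the effectors that stood highest and of 2 contrasting members are shown because ISRE and STAT sites are how the pathway reaches its targets. The windows run from 250 bases before the RefSeq start site to 30 after it and come from RefSeq on GRCm38.p6, the assembly also called mm10. Capitals mark each ISRE core (TTTC, any 2 bases, TTTC, read on either strand, so that the other strand shows GAAA, any 2 bases, GAAA) and each gamma-activated site, GAS (TTC, any 3 bases, GAA, which reads the same on both strands). Motifs that overlap are joined. The RefSeq start of Bst2 lies 35 nt upstream of the 5' end of its transcript in the files, and the other 5 starts coincide with theirs.
Bst2 promoter, chr8:71537443-71537722, minus strand: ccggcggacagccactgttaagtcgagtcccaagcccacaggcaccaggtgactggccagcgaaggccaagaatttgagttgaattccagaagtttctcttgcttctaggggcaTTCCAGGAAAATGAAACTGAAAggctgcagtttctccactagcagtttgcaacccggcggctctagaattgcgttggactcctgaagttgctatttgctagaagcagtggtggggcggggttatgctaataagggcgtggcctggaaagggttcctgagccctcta
Ifitm2 promoter, chr7:140955932-140956211, minus strand: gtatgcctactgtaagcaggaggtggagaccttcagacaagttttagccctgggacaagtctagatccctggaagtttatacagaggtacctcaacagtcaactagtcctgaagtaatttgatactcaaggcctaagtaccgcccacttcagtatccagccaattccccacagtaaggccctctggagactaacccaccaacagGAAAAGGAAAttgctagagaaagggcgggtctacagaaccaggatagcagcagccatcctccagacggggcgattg
Ifitm3 promoter, chr7:141010715-141010994, minus strand: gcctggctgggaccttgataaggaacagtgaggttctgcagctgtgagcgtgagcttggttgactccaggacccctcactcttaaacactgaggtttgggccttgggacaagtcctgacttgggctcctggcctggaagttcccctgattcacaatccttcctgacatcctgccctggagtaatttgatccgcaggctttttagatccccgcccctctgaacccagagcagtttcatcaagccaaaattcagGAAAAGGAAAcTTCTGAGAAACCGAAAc
Isg15 promoter, chr4:156200789-156201068, minus strand: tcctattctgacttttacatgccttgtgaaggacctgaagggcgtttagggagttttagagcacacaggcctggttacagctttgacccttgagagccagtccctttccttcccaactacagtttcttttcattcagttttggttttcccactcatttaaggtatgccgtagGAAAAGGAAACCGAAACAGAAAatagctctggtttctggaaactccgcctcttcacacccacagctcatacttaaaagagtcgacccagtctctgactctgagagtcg
Ifit1 promoter, chr19:34640639-34640918, plus strand: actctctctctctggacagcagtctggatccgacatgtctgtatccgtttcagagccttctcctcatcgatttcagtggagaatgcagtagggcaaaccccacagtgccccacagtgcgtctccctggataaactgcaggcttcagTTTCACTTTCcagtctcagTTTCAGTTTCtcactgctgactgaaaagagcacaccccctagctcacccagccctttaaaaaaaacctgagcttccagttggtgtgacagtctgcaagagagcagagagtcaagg
Irf1 promoter, chr11:53769764-53770043, plus strand: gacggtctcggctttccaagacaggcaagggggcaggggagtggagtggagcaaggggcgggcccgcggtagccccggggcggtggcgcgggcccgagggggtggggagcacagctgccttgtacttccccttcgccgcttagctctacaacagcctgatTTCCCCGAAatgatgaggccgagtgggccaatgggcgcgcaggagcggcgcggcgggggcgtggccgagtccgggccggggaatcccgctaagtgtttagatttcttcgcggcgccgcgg

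In Bst2, a GAS beginning at position -136 from the start site ran into overlapping ISRE cores at -130 and -124. Isg15 held 3 overlapping ISRE cores at -78, -72 and -66. Ifitm2 had 1 core at -46, and in Ifitm3 the cores fell just after the start, at 3 and 20, with a GAS between them at 14. Ifit1 had 2 separate cores at -104 and -85 but stood at 0.10 and 0.23 FPKM. Irf1 had no ISRE core and a GAS at -90, with 45.6 and 46.8 FPKM.

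Of the 37 genes, 28 had a promoter window in the RefSeq table, and Mx1, Mx2, Oas2, Zbp1, Dhx58, Ifi27, Ifi27l2a, Usp18 and Rtp4 did not. Over the full windows to 50 bases after the start, 12 of 28 members (42.9%) held an ISRE core, as did 3.44% of all 32851 windows, and 9 (32.1%) held a GAS, as did 8.3% of all. By role, an ISRE core was found in 7 of 12 effectors, 2 of 4 sensors, 2 of 5 dsRNA enzymes and 1 of 7 receptor subunits and transcription factors. Among the 5 genes with a window that were at least 2-fold higher, 4 held a core, and Ifnar2 did not. Among the 8 effectors with a window that were not, 3 did: Ifit1, Ifit3 and Rsad2. CpG content also differed by role. An observed to expected CpG ratio of 0.6 or more was found in 5 of 7 receptor subunits and transcription factors, 3 of 4 sensors, 1 of 5 dsRNA enzymes and 0 of 12 effectors, against 35.8% of all windows; the median ratio of the effectors was 0.27. DNA methylation was not measured in these files, and a match of letters shows no binding.

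**Figure D2:**
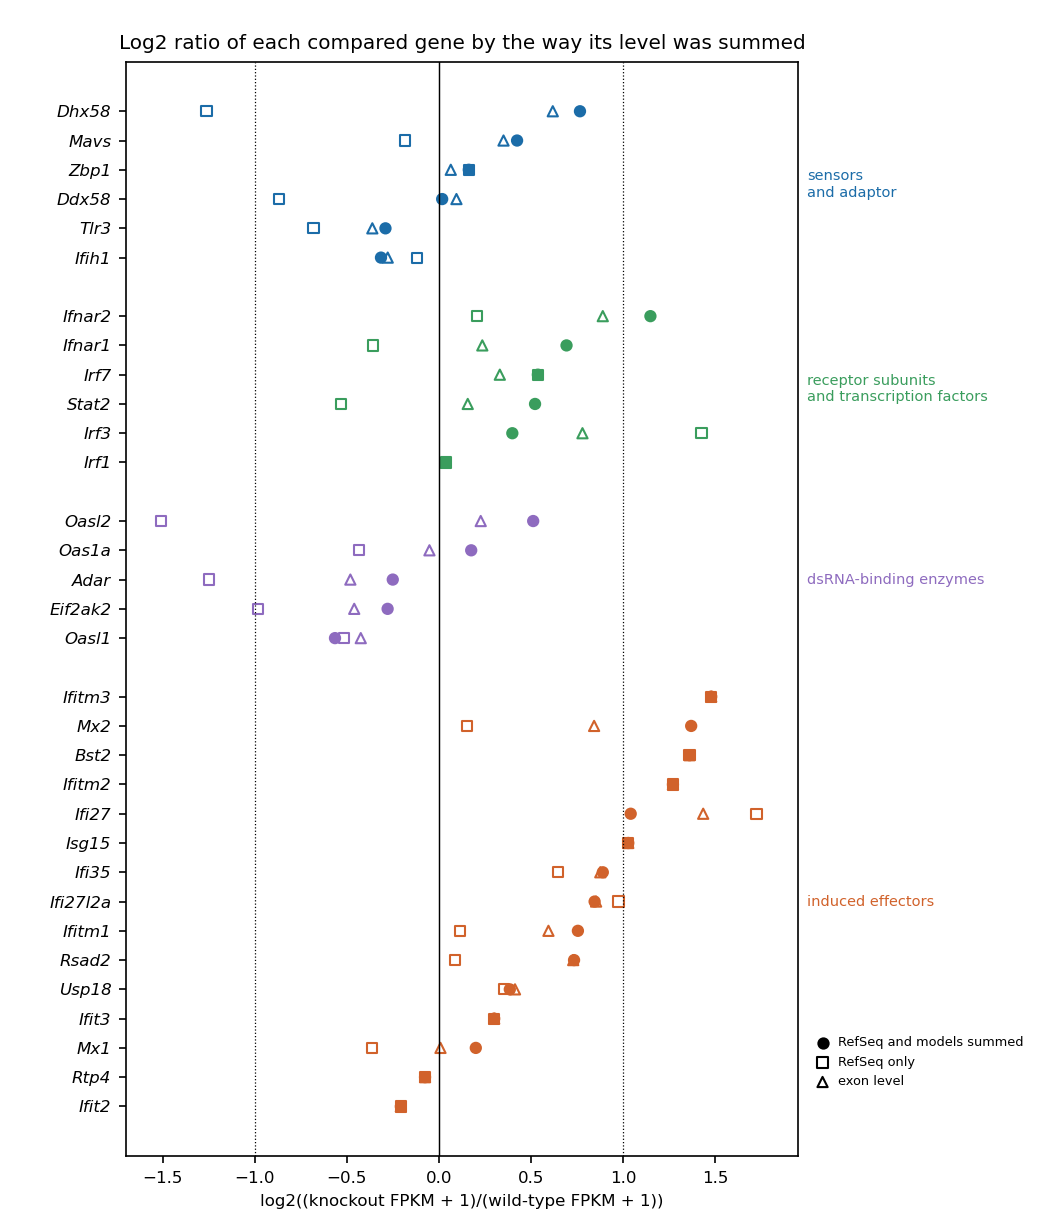
Ratio of each of the 32 compared genes, log2((knockout FPKM + 1)/(wild-type FPKM + 1)), computed from RefSeq transcripts and assembled models summed (filled circle), from RefSeq transcripts only (open square) and at the exon level (triangle), coloured by role. Dotted lines mark 2-fold. Where a gene has no models the symbols coincide, as for Bst2, Ifitm2 and Ifitm3, and for Oasl2 they span 0.

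The direction of 8 of the 32 genes depended on which transcripts were summed. Dhx58, Ddx58, Mavs, Ifnar1, Stat2, Oasl2, Oas1a and Mx1 were above 0 in the sum and below 0 on RefSeq transcripts alone. 17 genes were higher in the knockout library in all 3 ways and 7 lower in all 3: Ifih1, Tlr3, Adar, Eif2ak2, Oasl1, Ifit2 and Rtp4. The shares of all genes that changed or kept direction across the 3 ways were not computed. These counts therefore have no background and cannot be called particular to the members. The genes that were at least 2-fold higher in all 3 ways were 5, namely Ifitm3, Bst2, Ifitm2, Ifi27 and Isg15. Of these, Ifitm3, Bst2, Ifitm2 and Isg15 have a single RefSeq transcript and no models. Their 3 ratios are therefore the same by construction, and only for Ifi27 could the ways have differed. On RefSeq transcripts alone the median fell to 0.06 over the 32 genes, beside 0.11 over all genes, to 0.35 over the effectors and to -0.43 over the sensors, and 6 of the 32 genes were at least 2-fold higher and 3 (Oasl2, Dhx58 and Adar) at least 2-fold lower, in a setting where 10.4% of all genes were higher and 10.1% lower by that much. The number of models joined to members was 25 in wild-type RNA and 36 in knockout RNA.

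Transcript length ran alongside the ratio in these libraries. Over all 13823 genes the Spearman correlation between the ratio and the length of the longest RefSeq transcript was -0.40, and over the 32 members it was -0.54. Both are descriptions across genes that share the same pair of libraries. The compared effectors had a median length of 1360 nt and the sensors with their adaptor 3712.5 nt, so the groups set against each other differ in length. The 5 genes at least 2-fold higher by all 3 ways of summing transcripts were all shorter than 1100 nt. Among the 8 members under 1100 nt, 7 were compared, with a median ratio of 1.04 and 5 at least 2-fold higher; all 1505 genes of that length had a median of 0.54 with 18.4% at least 2-fold higher. The 25 compared members from 1100 nt had a median of 0.30 and 2 at least 2-fold higher, Mx2 and Ifnar2, beside a median of 0.18 and 6.36% over 12318 genes. With the median of 20 length bins subtracted, the ratio fell from 1.48 to 0.95 for Ifitm3, from 1.36 to 0.83 for Bst2, from 1.27 to 0.74 for Ifitm2, from 1.04 to 0.49 for Ifi27 and from 1.03 to 0.50 for Isg15. Mx2 at 1.12 and Ifnar2 at 1.00 then remained past 2-fold, and the medians were 0.47 for the effectors, -0.06 for the sensors and 0.20 for all 32 genes. Ranked by ratio within its own length bin, Ifitm3 stood at percentile 93.1, Bst2 at 91.6, Ifitm2 at 90.8, Ifi27 at 85.2 and Isg15 at 81.9.

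**Figure D3:**
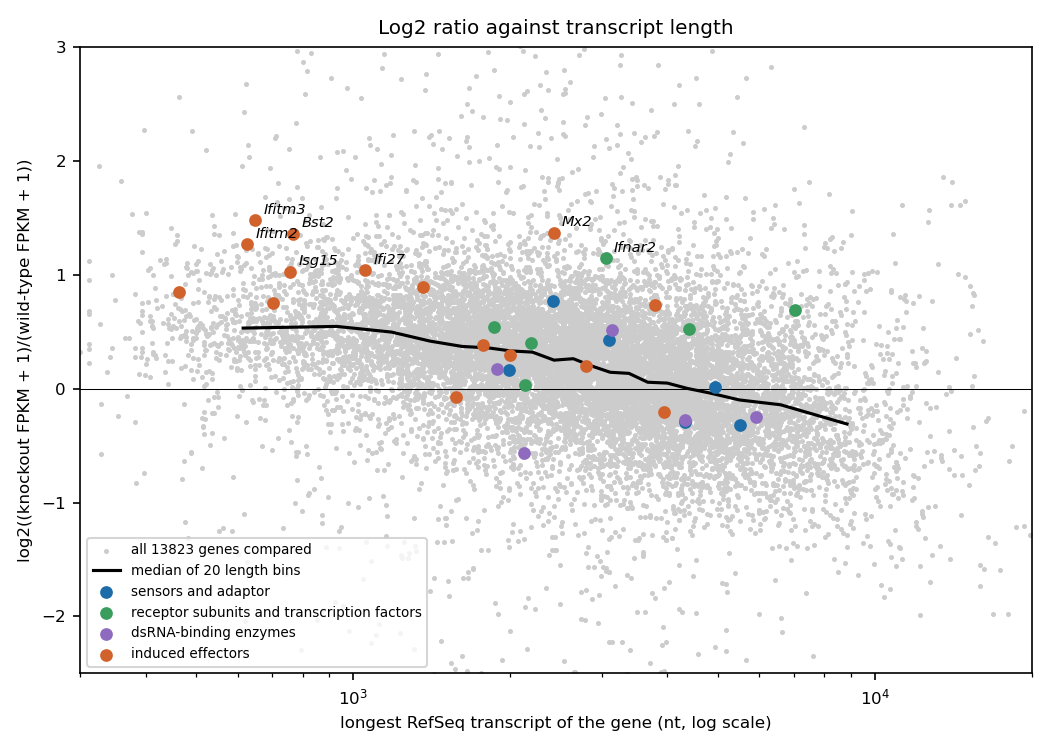
Ratio of all 13823 genes compared (grey) against the length of their longest RefSeq transcript on a log axis, with the median of 20 length bins (line) and the 32 members coloured by role; 238 genes lie outside the axes. Members past 2-fold are named: 5 sit on the left under 1100 nt, and Mx2 and Ifnar2 lie among longer genes.

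The ends of the longer members differed as well. For the 18 compared members of 2000 nt or more, the change over the 500 nt at the 5' end was set against that over the 500 nt at the 3' end. It lay below the 3' change in 13 and above it in 2, and the changes were equal in the rest. End levels were not computed over all genes, so no background share can be given and the pattern cannot be called particular to these members. The median change was -0.16 at the 5' end and 0.27 at the 3' end. Ddx58 was lower at the 5' end, from 1.13 to 0.19 FPKM, and higher at the 3' end, from 1.07 to 1.68. Stat2 showed the same pattern, from 6.87 to 4.44 FPKM at the 5' end and from 10.4 to 15.3 at the 3' end. Ifnar1 was the other way round, from 17.7 to 29.2 FPKM at the 5' end and from 17.7 to 13.6 at the 3' end. The part of transcript length and of the unequal ends in the ratios of the members was not tested.

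Ratios also differed by level. The 16 compared members of 5 FPKM or more in at least 1 library had a median of 0.76, beside 0.24 for all genes of that level. The 16 below had a median of 0.17, beside 0.15. In all, 21 of the 37 genes were under 5 FPKM in both libraries, among them 4 of 6 sensors and 11 of 18 effectors.

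The rest of the pathway gave a background for these genes. The 16 other receptor and JAK-STAT genes were all compared, and 0 were 2-fold different in either direction, with a median of 0.38. Ptpn6, a phosphatase of blood cells that damps JAK signalling, had the highest ratio at 0.95, from 7.41 to 15.3 FPKM. Socs3, a feedback inhibitor, went from 8.36 to 15.2 FPKM and Il10rb, the shared subunit of the lambda interferon receptor, from 9.77 to 17.6. Stat3 was at 22.5 and 37.8 FPKM. Jak1, the most abundant of the list, was lower at 67.4 and 53.5 FPKM.

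Of 26 other genes of nucleic acid sensing and relay, 25 were compared, with a median of 0.45, 4 at least 2-fold higher and 0 lower. The 4 were Ikbke, the interferon-inducible kinase that phosphorylates IRF3, listed at 0 in wild-type RNA and at 3.97 FPKM in knockout RNA; Ripk3, the necroptosis kinase downstream of ZBP1, at 7.54 and 27.3 FPKM; Sting1, the adaptor of DNA sensing, at 1.23 and 4.26 FPKM; and Tank, a scaffold of the kinases, at 8.05 and 20.3 FPKM. Ikbke, Ripk3 and Sting1 stayed past 2-fold on RefSeq transcripts and at the exon level, whereas the ratio of Tank, 1.23 in the sum, was 0.42 and 0.30 there. The helicases Dhx9 and Ddx3x had the lowest ratios of the list. Dhx9, the most abundant in the wild-type library, which unwinds repeat-derived dsRNA, was at 118 and 63.0 FPKM, a ratio of -0.90, and Ddx3x, an RNA helicase that also acts in the sensing relay, was at 59.0 and 29.6 FPKM, a ratio of -0.97.

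Of 20 genes that handle dsRNA or RNA-DNA hybrids, 19 were compared, with a median of 0.24, 1 at least 2-fold higher and 0 lower. That gene was Trex1, the cytoplasmic DNA exonuclease, listed at 0 in wild-type RNA and at 8.09 FPKM in knockout RNA. Zc3hav1, the zinc-finger antiviral protein, was at 5.50 and 11.4 FPKM with a ratio of 0.93, but -0.13 at the exon level. Ppp1r15a, which reverses the translation block of PKR, was at 35.5 and 66.0 FPKM, and Prkra, the protein activator of PKR, at 17.0 and 28.3.

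Of 58 further interferon-induced genes, 48 were compared. Their median was 0.48, close to the 0.47 of the members, with 7 at least 2-fold higher, 0 lower, 39 above 0 and 9 below. Ly6e, a membrane protein that restricts some viruses, was at 35.9 and 91.5 FPKM, a ratio of 1.32, and the class I histocompatibility gene H2-D1 at 48.8 and 115 FPKM, a ratio of 1.21. B2m, the light chain of class I molecules, was the most abundant at 190 and 280 FPKM, a ratio of 0.55. Ly6a, at 1.05 and 4.03 FPKM, and the peptide transporter Tap1, at 2.77 and 7.83 FPKM, were past 2-fold in the sum and below 0 on RefSeq transcripts, at -1.03 and -0.26. Helz2, at 1.48 and 4.02 FPKM, had a ratio of 1.02 in the sum, 0.37 on RefSeq transcripts and 0.01 at the exon level. The remaining 2-fold genes were Shisa5 and the immunoproteasome subunit Psmb8, which stayed past 2-fold in all 3 ways. Ddx60, a helicase reported to assist RIG-I, had the lowest ratio at -0.91, from 2.49 to 0.85 FPKM.

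**Figure D4:**
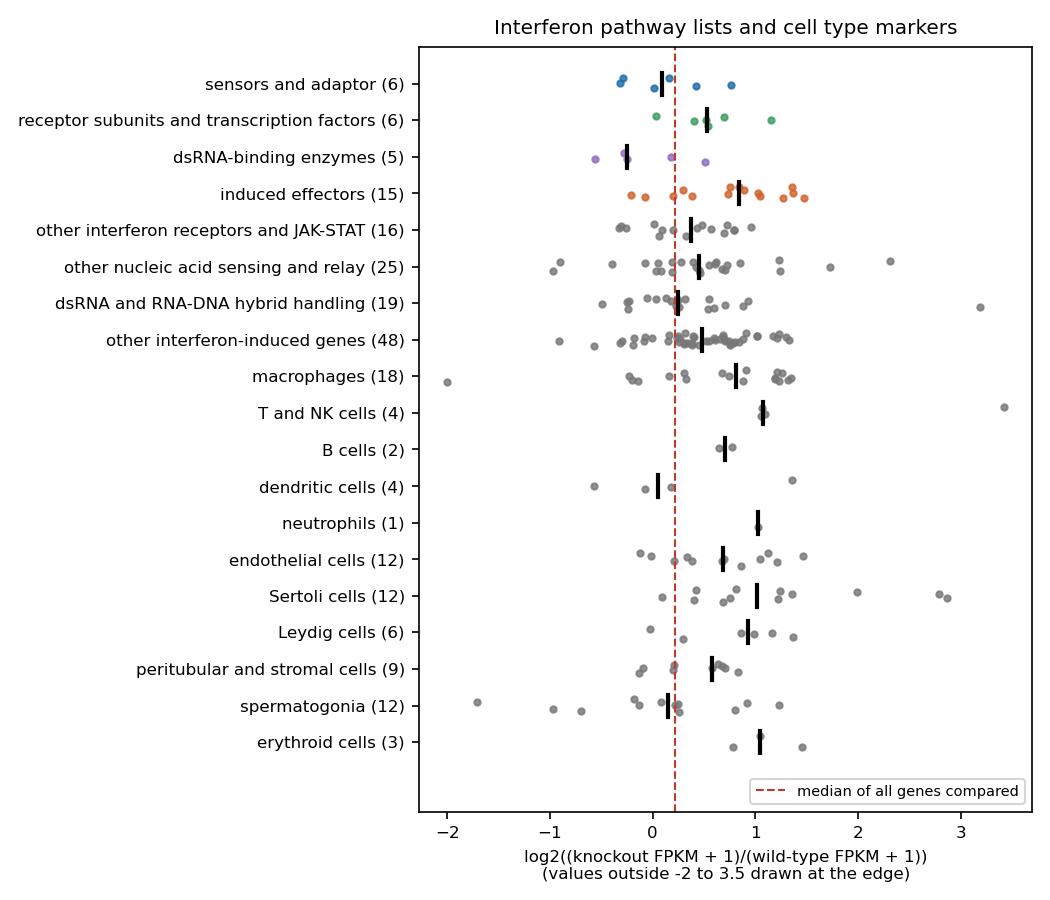
Ratio of every compared gene in the 4 roles of the chosen list (coloured), in 4 further pathway lists and in 11 lists of cell type markers (grey), with the median of each list (black bar), the number compared in brackets and the median of all genes compared, 0.22 (dashed line). Vertical scatter has no meaning. The medians of the sensors and dsRNA enzymes lie left of the dashed line, and that of the effectors lies right of it, close to those of macrophage, Sertoli and Leydig markers.

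The preparations held more than germ cells. In each marker list of this paragraph most compared genes had ratios above 0, as did 66% of all genes. Sums were higher in the knockout library in general: over all genes compared they were 412363 FPKM in wild-type RNA and 511112 FPKM in knockout RNA. Macrophage markers were present in both libraries: their summed level over 18 genes was 614 FPKM in wild-type RNA and 1193 FPKM in knockout RNA, with a median ratio of 0.81. Of these, 7 of 18 were at least 2-fold higher and 1 lower, beside 7.67% and 3.49% of all genes compared. Lyz2 was at 141 and 261 FPKM, C1qb at 66.8 and 162, and C1qc at 68.5 and 158, while Cd68 was at 24.6 FPKM and listed at 0. Cd68 was 1 of 182 compared genes listed at 0 in the knockout library only, and whether its 0 reflects absent RNA was not tested. Of the 18 ratios 14 lay above 0 and 4 below. Beside Cd68, those below were Mrc1 at 34.8 and 29.5 FPKM, Cd163 at 1.58 and 1.24, and Ptprc at 2.29 and 1.98. Macrophages express many of the effectors named above. The 12 endothelial markers summed to 79.7 and 154 FPKM with a median of 0.69 and 4 at least 2-fold higher, the 12 Sertoli cell markers to 427 and 1010 FPKM with a median of 1.01 and 6 at least 2-fold higher, and the 7 Leydig cell markers to 62.3 and 138 FPKM with a median of 0.92 and 2 of 6 compared at least 2-fold higher. The 9 peritubular and stromal markers summed to 850 and 1154 FPKM, with a median of 0.57 and 0 past 2-fold. Of the compared ratios, 10 endothelial lay above 0 and 2 below, 12 Sertoli above and 0 below, and 5 Leydig above and 1 below. For the peritubular and stromal markers 7 lay above 0 and 2 below. The most abundant were Clu at 180 and 420 FPKM for Sertoli cells and Insl3 at 22.1 and 58.5 FPKM for Leydig cells, where Star was listed at 0 in both libraries. With the length-bin medians subtracted, the median was 0.55 for macrophage, 0.48 for endothelial and 0.69 for Sertoli cell markers. It was 0.57 for Leydig cell markers and 0.24 for peritubular and stromal markers. The part of these cells in the effector ratios was not tested.

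Markers of lymphocytes and other blood cells were low. The 9 T and NK cell markers in the files summed to 7.41 and 31.1 FPKM, of which Cd2 made up 0.45 and 14.5 FPKM; 4 of the 9 were compared and all 4 were at least 2-fold higher, while the other 5 were under 1 FPKM in both libraries. B cell markers summed to 2.78 and 5.55 FPKM with Cd79a the highest at 1.40 and 2.75, neutrophil markers to 1.19 and 3.22 FPKM with Retnlg at 0 in both, and erythroid markers to 9.21 and 22.2 FPKM. Bst2 is also a marker of plasmacytoid dendritic cells, and the other 7 genes of the dendritic list were uneven. Siglech (0.17 and 0.08 FPKM), Xcr1 (0.12 and 0.10), Cd209a (0.05 and 0) and Flt3 (0.21 and 0.57) were under 1 FPKM in both libraries, while Zbtb46 was at 10.1 and 11.6 FPKM, Tcf4 at 7.87 and 4.96 and Irf8 at 6.82 and 6.45. Bst2 itself made up 35.0 and 91.5 FPKM of the dendritic sum of 60.3 and 115 FPKM. All 12 spermatogonial markers were above 1 FPKM in both libraries, with sums of 1155 and 1033 FPKM and a median ratio of 0.15. The most abundant were Uchl1 at 509 and 466 FPKM, Dazl at 223 and 137 and Ddx4 at 139 and 123. Of the 12 ratios 7 lay above 0 and 5 below, from -1.71 for Kit and -0.97 for Zbtb16 to 0.92 for Nanos2 and 1.23 for Id4. Dnmt3l itself stood at 1.67 FPKM (0.79 to 2.68) in wild-type RNA and was listed at 0 in knockout RNA.

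The genes around the 2-fold members were read as well. The nearest compared genes beside Bst2 were Mvb12a, 5.49 kb after it, at 23.5 and 40.6 FPKM, and Plvap, 22.5 kb before it, an endothelial marker at 9.64 and 21.0 FPKM. Il10rb begins 0.65 kb after Ifnar2, and its ratio was 0.79. Beside Isg15, Agrn lies 1.94 kb away and was lower, at 14.4 and 10.9 FPKM, as was Plekhn1 at 2.86 and 1.17 FPKM on the other side. In the Ifitm cluster Ifitm5, a family member known from bone, was at 0.82 and 1.46 FPKM, Pgghg at 5.91 and 8.48, and B4galnt4 was lower at 7.50 and 3.70. Beside Ifi27, Ddx24 lies 8.32 kb before it and was at 60.2 and 100.4 FPKM, and beside Mx2, Fam3b lies 31.1 kb before it and was at 5.04 and 11.5 FPKM. Ratios of these neighbours lay on both sides of 0.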

How the data were processed

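Poly(A) RNA was selected, fragmented, copied with random primers and sequenced in read pairs on a HiScanSQ, per the labels' protocols. No strand-marking step is described there, so a gene and an antisense neighbour may share reads. Per the submitters' processing notes, the tools were CASAVA 1.9, TopHat2 2.0.8 and Cufflinks 2.1.1, on build mm10, with no settings given. The authors deposited per library an annotation of 30073 RefSeq transcripts and the models assembled from that library's reads, with an FPKM, its bounds and a coverage in each line's attributes, and a score column that was not used. Counts are not in these files, so depth is unknown; the coverage per FPKM of the knockout library was 1.10 times that of the wild-type library.

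RefSeq identifiers were named by accession (28942 in the RefSeq gene table, 174 in GENCODE metadata) or by exon overlap with GENCODE vM21 (884), and 158 got no name. Models under 300 nt were left out (498 wild-type, 608 knockout). Each longer model was added to the same-strand gene whose exons it covered most. A model without a strand was added to a gene of either strand where exons of that gene covered most of its bases. Ratios used a pseudocount of 1 FPKM and a filter of 1 FPKM in at least 1 library. Samples were grouped by the genotype in the labels. No test was made. The members, their roles and all lists were chosen with earlier results of these data known. Named were all members, Dnmt3l, and of each further list up to 4 genes with the largest absolute ratio and the most abundant gene. Of each marker list, up to 3 abundant genes and those at 0 were named. Named after their values were seen were Helz2, the dendritic genes, Mrc1, Cd163, Ptprc, Kit, Zbtb16, Nanos2, Id4, the remaining 2-fold genes of a list and the neighbours. Some members of the further lists are not reported here. The computation was tested on simulated data. Alternatives were pseudocounts of 0.1 and 5, no filter or one of 10 FPKM, 3 scalings, other transcripts summed, coverage, the exon level, length bins, other fold thresholds and bounds apart. Python 3.11.15, pandas 2.3.3, numpy 2.4.6 and matplotlib 3.10.9 were used.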

Additional observations from a re-analysis of the deposited data

How the results depend on the processing

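The 7 genes at least 2-fold higher (7.67% of all genes) became 9 with a pseudocount of 0.1 FPKM (11.0% of all genes), 3 with a pseudocount of 5 FPKM (3.0%), 4 when centred on the median gene (4.87%), 4 with upper-quartile scaling (4.99%), 3 when scaled to total FPKM minus the 50 most abundant genes (4.43%), 2 with the median of 20 length bins removed (4.77%), 10 with the coverage (13.5%), 13 at 1.5-fold (22.7%) and 0 at 4-fold (1.94%). The 0 genes at least 2-fold lower (3.49% of all genes) became 3 on RefSeq transcripts only (10.1%) and 2 on the most abundant RefSeq transcript (9.82%). The median of the 32 genes ran from 0.06 (RefSeq transcripts only) to 0.75 (filter of 10 FPKM), that of the effectors from 0.35 to 1.15 and that of the sensors from -0.43 to 0.42. The sensor value of 0.42 came from the filter of 10 FPKM, which only the adaptor Mavs passed, so it is the ratio of a single gene. The effector median was above the sensor median in each of the alternatives run, where that setting compared the effectors with Mavs alone. All alternatives reuse the same pair of libraries and do not replicate this difference. Of 367 values of single genes under alternatives, 298 lay within the bounds of the reported ratio. Those bounds set the lower bound of a library against the upper bound of the other. For Bst2 (1.36, bounds 1.40 to 1.97) and Ifitm2 (1.27, bounds 1.42 to 1.93) the reported ratio itself lay outside them. Among the 2-fold genes, 0 changed sign. This was largely fixed in advance. A pseudocount or filter cannot turn a sign, and a gene with a single transcript and no model keeps its ratio however transcripts are summed. No paired analysis was possible because there was 1 library of each genotype, and no library could be left out. Depth is unknown, so no limit from counts can be given for the genes listed at 0.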
